A study of Mus musculus with 12 samples.

Results

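*Pax6*, a single gene among the 55487 of the gene table, was described here through all 26 of its transcripts, named Pax6-201 to Pax6-226, among the 142699 transcripts measured. The transcripts were taken by their name, and no level or difference entered the rule. *Pax6* encodes a transcription factor with 2 DNA-binding parts, the paired domain and the homeodomain, and is a master gene of eye formation that stays on in the adult retina, mainly in amacrine cells, retinal ganglion cells (RGCs) and horizontal cells. The gene has alternative starts and an alternative exon of the paired domain, exon 5a, which changes how that domain contacts DNA. Which of these transcripts a retina holds is therefore a property of its own, beside the level of the gene.

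Poly(A) RNA of mouse retinas was sequenced in 12 libraries, 2 for each of 6 groups. WT libraries came from C57BL/6J (B6J) mice, sh*Pax6* libraries from retinas of WT mice given the viral vector AAV2.7m8 with pU6-sh*Pax6*-GFP, which makes an shRNA against *Pax6* from the U6 promoter, and JNK3 KO libraries from Jnk3-/- mice, which lack the stress kinase JNK3. Each genotype received an intravitreal injection of 1 μL of PBS or of 1 μL of 40 mM NMDA (40 nmol), an agonist of glutamate receptors that can kill RGCs and amacrine cells by excitotoxicity. The study reports apoptosis after NMDA mainly in RGCs and only little in displaced amacrine cells. Each library was made from more than 3 pooled retinas, and the study's text describes the mice as adult. None of the 12 libraries came from retinas with the shScramble vector, so infection and knockdown cannot be told apart. The U6 promoter is not restricted to one cell type, and the position in *Pax6* that the shRNA targets is not given in the sources used here.

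Values are FPKM, read fragments per length of a transcript scaled to the depth of its library, so that levels can be compared between transcripts of different length. The number of reads behind a value is unknown, and nothing in the labels says that the libraries of a group came from separate sets of animals, so p-values measure the spread between these libraries. The 2 WT NMDA libraries stood apart, with a summed FPKM over all genes of 805627 and 820180 against 541210 to 576922 in the other 10, and the median log2 difference of all tested transcripts between WT NMDA and WT PBS was -0.58 (-0.09 for genes). Scaling to TPM moved the *Pax6* difference in WT from -1.68 to -2.26, since it lowers all WT NMDA values alike. *Mapk10*, the gene of JNK3, had 42.79 and 50.72 FPKM in WT PBS and 9.47 and 8.75 FPKM in JNK3 KO PBS libraries, but 8.98 and 6.0 FPKM in WT NMDA and 6.65 and 13.77 FPKM in JNK3 KO NMDA libraries, where the genotypes overlapped.

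In the annotation, *Pax6* lies on the plus strand of chromosome 2 of GRCm38 from 105668900 to 105697364, and its 26 transcripts comprise 11 protein-coding transcripts, 10 processed transcripts without a reading frame and 5 transcripts with a retained intron. All 11 coding transcripts share 1 coding start, at position 105680298 in an exon, so their different starts alter the untranslated leader and not the first residue. Exon 5a, at chr2:105684751-105684792, is 42 bases long and adds 14 codons, which makes 436 codons with it and 422 without it. The junction that tells both forms apart is shown because the main coding transcripts of the retina differ in it, with exon 5a in capitals and 30 bases of the neighbouring exons on each side, as in Pax6-206 and Pax6-207.
with exon 5a: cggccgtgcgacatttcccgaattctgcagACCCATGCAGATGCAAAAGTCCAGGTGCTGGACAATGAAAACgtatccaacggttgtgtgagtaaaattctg
without exon 5a: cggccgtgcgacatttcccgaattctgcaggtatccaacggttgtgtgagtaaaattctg

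Exon 5a was held by 5 of the 9 coding transcripts that span its site (Pax6-201, Pax6-205, Pax6-206, Pax6-224 and Pax6-225) and skipped in 4 (Pax6-202, Pax6-203, Pax6-204 and Pax6-207). Pax6-208 joins the exon with the coding start to an exon behind the paired box and has 254 codons, Pax6-224 ends after 139 codons, and Pax6-214 is annotated with only 17. The remaining 8 coding transcripts are called full-length below.

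The transcripts began at 12 places, of which 4 held several members when starts less than 500 bases apart were joined. These are the first exon start (Pax6-206, Pax6-207, Pax6-210 and Pax6-214), a second start 6209 bases downstream (Pax6-202, Pax6-204, Pax6-205, Pax6-220, Pax6-225 and Pax6-226), the third start 7228 bases downstream (Pax6-201 and Pax6-203) and an intronic start 13563 bases downstream (Pax6-211, Pax6-212, Pax6-213, Pax6-215, Pax6-222 and Pax6-223). The intronic start lies between 105682463 and 105682637, behind the coding start, and none of its 6 transcripts is annotated as coding. RefSeq lists 2 *Pax6* starts, at 105668896 and at 105682463, which match the first exon start and the intronic start. The 250 bases before each (RefSeq, GRCm38.p6, plus strand) are shown because the shares of these starts are compared below, with a CCAAT in capitals; TATAAA boxes and GGGCGG boxes were searched alike, on both strands.
chr2:105668646-105668895: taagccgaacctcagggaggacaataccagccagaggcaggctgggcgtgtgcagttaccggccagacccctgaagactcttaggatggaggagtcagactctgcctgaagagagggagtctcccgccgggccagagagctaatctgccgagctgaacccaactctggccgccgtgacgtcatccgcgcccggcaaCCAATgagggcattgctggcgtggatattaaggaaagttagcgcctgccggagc
chr2:105682213-105682462: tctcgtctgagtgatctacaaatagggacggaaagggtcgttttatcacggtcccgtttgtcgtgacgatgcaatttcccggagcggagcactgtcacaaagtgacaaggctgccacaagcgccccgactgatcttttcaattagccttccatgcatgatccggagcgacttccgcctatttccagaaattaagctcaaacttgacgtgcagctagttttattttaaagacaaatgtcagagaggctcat
The first window held 1 CCAAT, a motif found in 33.8% of 32851 RefSeq windows of this length, and neither a TATAAA (12.4%) nor a GGGCGG (32.7%). The second held none of the 3 motifs. Its GC content was 47.6% against 60.8% in the first and a median of 52.4%, while both had 15 CpG against a median of 6. A motif match describes these letters only.

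**Figure D1:**
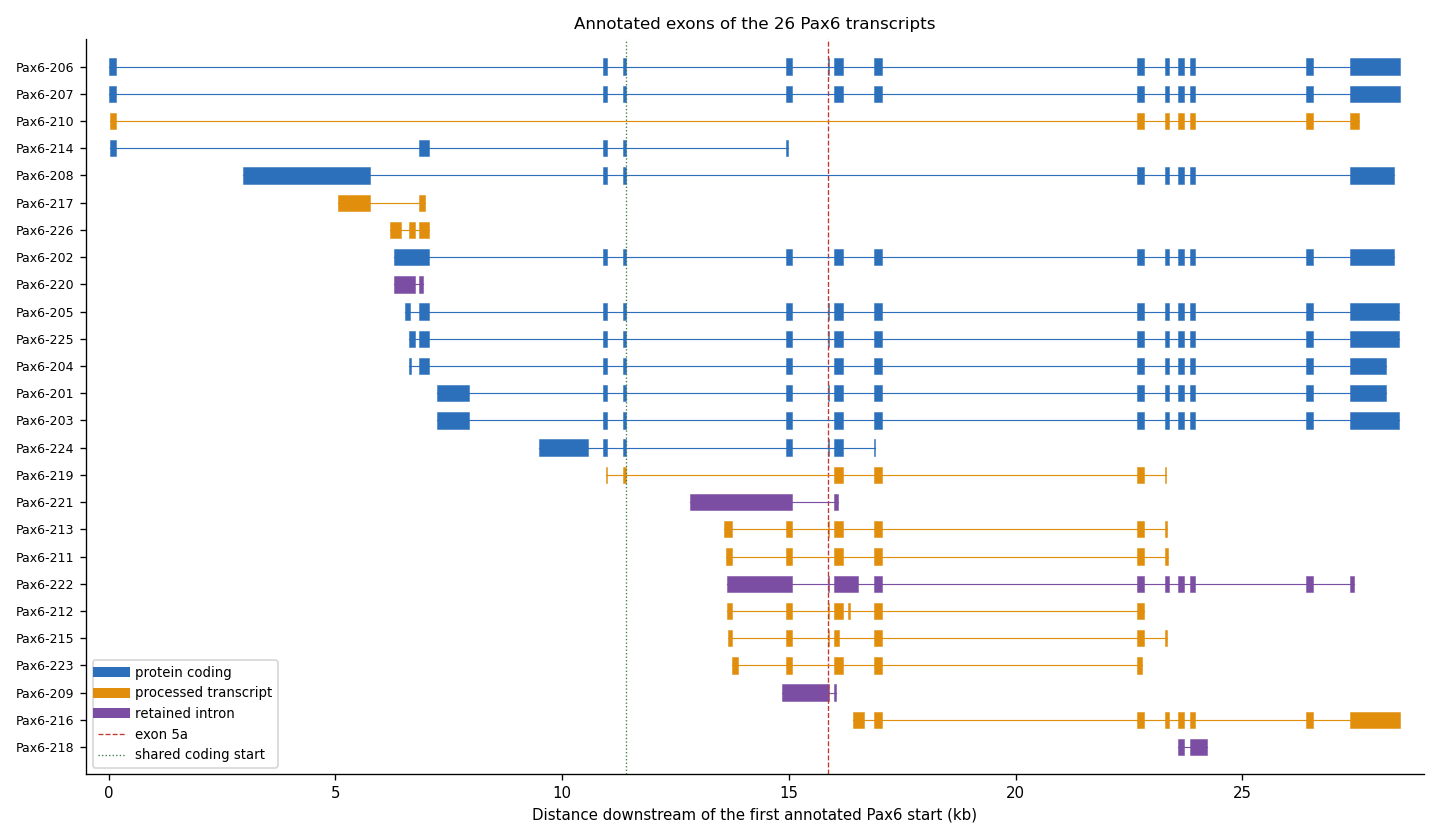
Annotated exons (boxes) and introns (lines) of the 26 *Pax6* transcripts, 1 per row, by distance downstream of the first annotated start in kb; colours give the transcript type, the dashed line exon 5a and the dotted line the shared coding start. The 6 transcripts of the intronic start begin 13563 bases downstream or later, to the right of the coding start, and Pax6-210 skips from the first exon to exons behind the paired box.

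Many of these transcripts overlap almost fully. A total of 16 of 26 had no exonic base and 14 no splice junction that no other *Pax6* transcript has, and 9 had neither (Pax6-203, Pax6-204, Pax6-205, Pax6-206, Pax6-207, Pax6-211, Pax6-213, Pax6-220 and Pax6-225). Their levels rest on how RSEM divided shared reads, so the split between them is uncertain. An exact 0 can be such a division too, and it is given here as a transcript listed at 0.

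*Pax6* fell after NMDA in all 3 genotypes, most in WT retinas, where it was at the lowest level of the study. It was at 173.48 and 177.3 FPKM in both WT PBS libraries, then at 55.42 and 53.81 FPKM in WT NMDA libraries. The sh*Pax6* libraries had 94.56 and 92.84 FPKM after PBS and 67.52 and 58.73 FPKM after NMDA, and the JNK3 KO libraries 186.72 and 191.41 FPKM after PBS and 128.89 and 137.55 FPKM after NMDA. No group overlapped another, and the order from highest to lowest was JNK3 KO PBS, WT PBS, JNK3 KO NMDA, sh*Pax6* PBS, sh*Pax6* NMDA and WT NMDA. On log2(FPKM + 0.1), the NMDA response was -1.68 in WT (SE 0.07, adjusted p = 1.21e-07 by limma with Benjamini-Hochberg adjustment over 16471 genes), -0.57 in sh*Pax6* (adjusted p = 0.000316) and -0.51 in JNK3 KO retinas (adjusted p = 0.00247). An adjusted p under 0.05, the threshold for a call throughout, was reached by 59.8%, 30.2% and 10.4% of all genes in these 3 comparisons.

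After PBS, *Pax6* was lower in sh*Pax6* than in WT retinas by -0.90 on the log2 scale (SE 0.07, adjusted p = 6.04e-05; 16.5% of genes were called), and the JNK3 KO libraries, although both above both WT libraries, did not pass the test (0.11, SE 0.07, adjusted p = 0.533; 1.51% of genes called; -0.04 with quantile normalization). After NMDA, JNK3 KO retinas had more *Pax6* than WT by 1.28 (adjusted p = 5.63e-07; 59.3% called). The sh*Pax6* retinas exceeded WT NMDA by 0.21 (adjusted p = 0.0275; 61.1% called), a call that was lost without either WT NMDA library (0.23 and 0.18), without sh*Pax6* NMDA replicate 1 (0.10) and with upper-quartile scaling (0.03). The response to NMDA differed from that of WT by 1.11 in sh*Pax6* (SE 0.10, adjusted p = 2.83e-05; 49.7% called) and by 1.18 in JNK3 KO retinas (adjusted p = 1.25e-05; 51.4% called). Both differences share the WT libraries.

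Marker sums of RGCs and amacrine cells, which hold PAX6, were set beside the *Pax6* level of each group. The 15 RGC markers summed to 769 to 795 FPKM in WT PBS, 742 to 783 FPKM in JNK3 KO PBS, 511 to 528 FPKM in WT NMDA, 263 to 267 FPKM in sh*Pax6* PBS, 232 to 233 FPKM in JNK3 KO NMDA and 101.23 to 115.18 FPKM in sh*Pax6* NMDA libraries. WT NMDA libraries, the lowest in *Pax6*, thus had a higher RGC marker sum than those of JNK3 KO NMDA and of both sh*Pax6* groups. Most of that sum came from *Thy1*, *Sncg*, *Stmn2* and *Gap43*, each lower in those groups. *Pou4f1*, a factor of RGCs, was at 2.83 and 1.55 FPKM in WT NMDA and 3.29 and 4.21 FPKM in JNK3 KO NMDA libraries. Against WT NMDA, 2 of 15 were higher, 6 lower and 7 not called in JNK3 KO NMDA libraries (59.3% of all genes called). In sh*Pax6* NMDA libraries 0 were higher and 9 lower (61.1% called). Between sh*Pax6* and WT after PBS, 9 of 15 were lower by the test and 0 higher (16.5% of all genes called), with a median log2 difference of -1.47 against -0.06 for all genes. The 14 amacrine markers summed to 674 to 685 FPKM in WT PBS, 647 to 649 FPKM in JNK3 KO PBS and 439 to 446 FPKM in sh*Pax6* PBS libraries. The sum was 340 to 342 FPKM in JNK3 KO NMDA, 277 to 283 FPKM in WT NMDA and 128 to 137 FPKM in sh*Pax6* NMDA libraries. This order differed from that of *Pax6* at every rank, since each group had changed places with a neighbour. The lowest group was sh*Pax6* NMDA for the amacrine sum and WT NMDA for *Pax6*. After NMDA 11, 11 and 10 of the RGC markers and 10, 13 and 6 of the amacrine markers were lower in WT, sh*Pax6* and JNK3 KO retinas, where 59.8%, 30.2% and 10.4% of all genes were called in either direction. Their median differences were -1.52, -2.30 and -1.56 for RGC and -1.55, -1.90 and -0.46 for amacrine markers, against -0.09, 0.10 and -0.01 for all genes. The 1 call in the other direction was *Stmn2*, a microtubule regulator of neurons on the RGC list, higher in WT by 0.62 (adjusted p = 0.00848). *Rbpms*, an RNA-binding protein that defines RGCs, was above 0 in every library. It was at 16.49 and 17.32 FPKM in WT PBS, 4.57 and 7.84 FPKM in WT NMDA, 3.75 and 4.59 FPKM in sh*Pax6* PBS and 4.02 and 4.49 FPKM in JNK3 KO NMDA libraries. *Gad1*, an enzyme of GABA synthesis on the amacrine list, was at 107.5 and 105.15 FPKM in WT PBS, 35.74 and 36.53 FPKM in WT NMDA and 71.7 and 75.32 FPKM in JNK3 KO NMDA libraries. In whole retinas, fewer cells of a type and less RNA per cell cannot be told apart, and the part of these markers in the *Pax6* values was not tested. The horizontal cell marker sum was 134 to 136 FPKM in WT PBS and 147 to 160 FPKM in WT NMDA libraries. *Septin4* was the only member that rose, from 83.96 and 89.35 FPKM to 142.12 and 126.17 FPKM, and the others fell. The 6 tested horizontal markers were lower for 5, 3 and 1 and higher for 1, 0 and 1 after NMDA in WT, sh*Pax6* and JNK3 KO retinas, and the 8 Müller glia markers lower for 4, 1 and 2 and higher for 3, 5 and 3. All 9 rod and all 8 cone markers were higher in sh*Pax6* than in WT retinas after PBS, and 3 of 9 bipolar markers were lower. Markers of lens, retinal pigment epithelium and cornea, other eye tissues that hold *Pax6*, summed to 91.0 to 285, 8.26 to 73.5 and 0.05 to 2.7 FPKM, with the lens sum highest in the WT NMDA libraries, while rod markers summed to 25557 to 25665 FPKM in WT PBS libraries.

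After NMDA the sum of the full-length coding transcripts was lower in WT and sh*Pax6* libraries and overlapped with PBS in JNK3 KO libraries. The 8 full-length coding transcripts summed to 86.63 and 80.94 FPKM in WT PBS and 31.14 and 23.98 FPKM in WT NMDA libraries. In JNK3 KO retinas the same sum was 74.6 and 74.67 FPKM after PBS and 76.33 and 73.82 FPKM after NMDA, ranges that overlapped. The sh*Pax6* libraries had 44.44 and 49.79 FPKM after PBS and 28.2 and 35.85 FPKM after NMDA. After NMDA the group mean was 32.9% of the PBS mean in WT, 68.0% in sh*Pax6* and 100.6% in JNK3 KO retinas.

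The 15 noncoding transcripts summed to 79.05 and 90.41 FPKM in WT PBS and 20.31 and 24.77 FPKM in WT NMDA libraries. In JNK3 KO retinas they went from 102.35 and 110.03 to 46.41 and 54.64 FPKM, which is -55.7 of the -55.8 FPKM by which the gene fell. In sh*Pax6* retinas they went from 45.5 and 39.24 to 29.23 and 16.36 FPKM. The noncoding sum was lower after NMDA without overlap in each genotype, and the coding sum was so in WT and sh*Pax6* but not in JNK3 KO retinas. These sums were formed after the values were seen and carry no test, and they depend on how shared reads were divided between coding and noncoding transcripts.

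**Figure D2:**
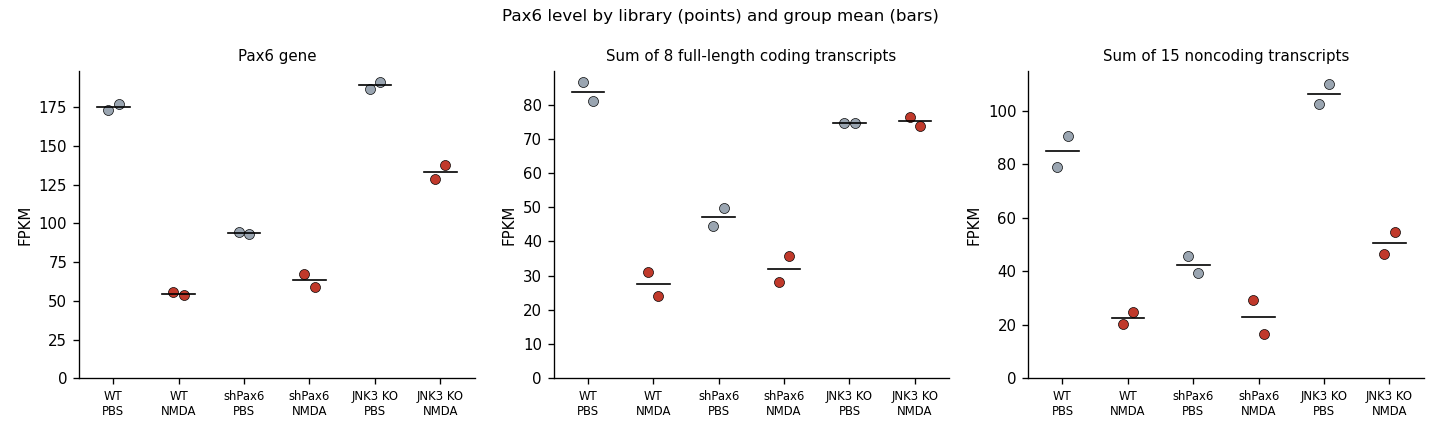
FPKM of the *Pax6* gene, of the sum of its 8 full-length coding transcripts and of the sum of its 15 noncoding transcripts, by group; points are libraries and bars group means. The coding sum of JNK3 KO retinas stayed between 73.82 and 76.33 FPKM with PBS and NMDA, while their noncoding sum was 102.35 and 110.03 FPKM with PBS and 46.41 and 54.64 FPKM with NMDA.

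Among full-length transcripts of WT and JNK3 KO retinas, 2 carried most of the coding RNA. Pax6-204, which starts at the second start and lacks exon 5a, was at 52.44 and 54.82 FPKM in both WT PBS libraries, then at 19.57 and 9.04 FPKM in WT NMDA libraries. It was at 22.82 and 20.93 FPKM in sh*Pax6* PBS, 15.55 and 21.41 FPKM in sh*Pax6* NMDA, 41.48 and 53.04 FPKM in JNK3 KO PBS, then 46.54 and 46.43 FPKM in JNK3 KO NMDA libraries. WT NMDA libraries were below both WT PBS libraries, whereas the treatments overlapped in sh*Pax6* and JNK3 KO retinas. The NMDA response of Pax6-204 was -2.0 in WT (SE 0.32, adjusted p = 0.00183 over 49940 transcripts), -0.26 in sh*Pax6* (adjusted p = 0.686) and -0.01 in JNK3 KO retinas (adjusted p = 1). It differed from WT by 1.74 in sh*Pax6* (adjusted p = 0.0266) and 1.99 in JNK3 KO (adjusted p = 0.0142). The first difference lost its call in 5 of 12 omissions of a library, the second in 1, and both with a correction for transcript length (1.11 and 1.41). With the spread of both compared groups alone the WT response missed the threshold (adjusted p = 0.0637).

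Pax6-206, the form with exon 5a from the first exon start, was at 25.19 and 21.71 FPKM in WT PBS and 8.3 and 8.0 FPKM in WT NMDA libraries, a response of -1.51 that missed the threshold (SE 0.55, adjusted p = 0.065). In JNK3 KO retinas it was at 27.13 and 15.93 FPKM after PBS and 24.26 and 22.49 FPKM after NMDA, and in sh*Pax6* retinas at 6.53 and 11.98 FPKM and at 8.95 and 2.5 FPKM. Its twin without exon 5a, Pax6-207, had another pattern. It was at 10.99 and 11.84 FPKM in sh*Pax6* PBS libraries and at 0.6 FPKM or listed at 0 in WT PBS, and it was listed at 0 in all 4 JNK3 KO libraries, in 1 WT NMDA library (1.03 FPKM in the other) and in 1 sh*Pax6* NMDA library (4.91 FPKM in the other). Both sh*Pax6* PBS libraries exceeded the other 10, yet the difference from WT PBS did not pass the test (adjusted p = 0.226), and neither transcript has a base or junction of its own.

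Pax6-210 was the most abundant noncoding transcript of the 3 groups injected with PBS. It joins the first exon directly to exons behind the paired box, a junction no other *Pax6* transcript has. It was at 28.07 and 33.63 FPKM in WT PBS and 3.62 and 3.32 FPKM in WT NMDA libraries, and the JNK3 KO retinas had 44.71 and 49.6 FPKM after PBS, then 12.29 and 15.21 FPKM after NMDA. The sh*Pax6* libraries had 16.12 and 14.01 FPKM after PBS and 16.1 and 1.44 FPKM after NMDA, so that its NMDA libraries disagreed with each other. The response was -3.11 in WT (SE 0.86, adjusted p = 0.0243), -1.78 in JNK3 KO (adjusted p = 0.569) and -1.60 in sh*Pax6* retinas (adjusted p = 0.342). The WT call was lost when any of the 4 WT libraries was left out (-3.24 to -2.98) and with the length correction (-2.65, adjusted p = 0.0617). The responses of JNK3 KO and WT did not differ by the test (1.33, SE 1.22, adjusted p = 0.48).

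Of the intronic start, Pax6-211 and Pax6-213 were the main transcripts. Pax6-211 was at 12.96 and 13.86 FPKM in WT PBS, 0.11 and 0.75 FPKM in WT NMDA, 12.34 and 9.99 FPKM in sh*Pax6* PBS, 0 and 2.29 FPKM in sh*Pax6* NMDA, 29.52 and 15.13 FPKM in JNK3 KO PBS, then 11.71 and 9.14 FPKM in JNK3 KO NMDA libraries. The NMDA libraries were below the PBS libraries in every genotype. Its response was -5.00 in WT (SE 1.29, adjusted p = 0.0181), a call lost without either WT PBS library or WT NMDA replicate 1, and it was called in neither sh*Pax6* (-4.52, adjusted p = 0.0776) nor JNK3 KO retinas (-1.02, adjusted p = 0.963). Pax6-213 ranged from a listed 0 to 26.94 FPKM with wide gaps within groups, such as 7.14 and 26.94 FPKM in JNK3 KO PBS, and was called in no comparison.

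**Figure D3:**
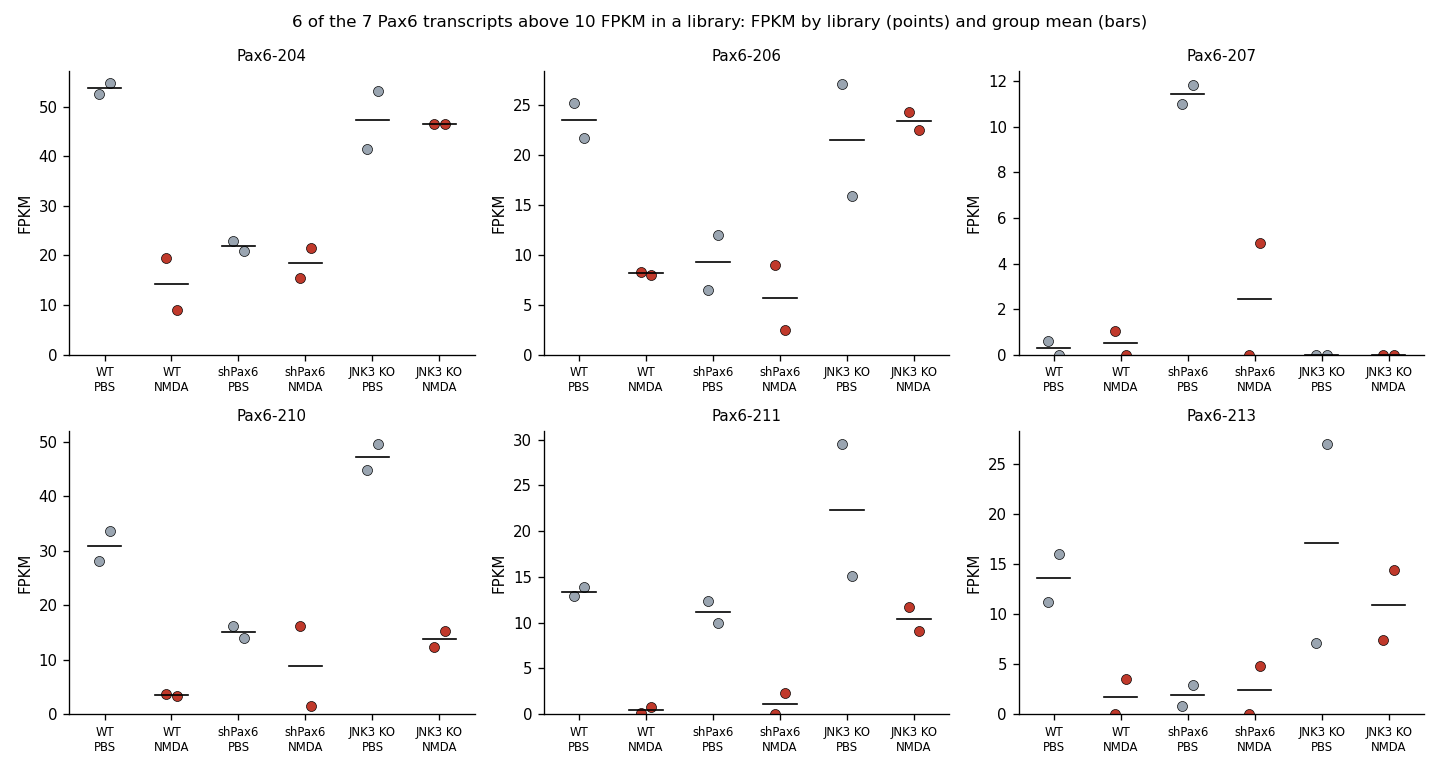
FPKM by group for 6 of the 7 *Pax6* transcripts that exceeded 10 FPKM in a library (ENSMUST00000146803 is plotted with the minor ones); points are libraries and bars group means, and each panel has its own scale from 0. Pax6-204 fell from 52.44 and 54.82 FPKM to 19.57 and 9.04 FPKM in WT retinas and overlapped between treatments in JNK3 KO retinas, and Pax6-207 was highest in the sh*Pax6* PBS libraries.

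Across all members, 19 of 26 had a mean above 1 FPKM in at least 1 group and were tested. The other 7 (Pax6-203, Pax6-205, Pax6-219, Pax6-220, Pax6-223, Pax6-225 and Pax6-226) never exceeded 1.35 FPKM, and Pax6-203 and Pax6-223 were listed at 0 in all 12 libraries. After NMDA in WT retinas 9 of the 19 passed the test, 8 lower and 1 higher, where 35.2% of all 49940 transcripts passed, 23.5% lower and 11.7% higher, and the median difference over the 19 was -2.39 against -0.58 over all. In sh*Pax6* retinas 1 passed (8.34% of all) and in JNK3 KO retinas none (1.31% of all), with 3 and 0 at an unadjusted p under 0.05 and medians of -0.69 and -0.28. By the study's criteria for p and fold, an unadjusted p under 0.05 and an absolute log2 difference above 1, here on the limma fit, 3 passed in sh*Pax6* retinas (14.8% of all). The study used edgeR and also limited the variance-mean ratio. Neither was done here, so the study's criteria stand below for these thresholds on the limma fit only. The count in sh*Pax6* retinas was 2 without NMDA replicate 1 and 5 without NMDA replicate 2, and that in JNK3 KO retinas was 1 without either of these sh*Pax6* libraries. In simulated data with 200 of 49940 transcripts changed, this test found 20.0% of those changed by 2 and 46.0% of those changed by 4 (log2). So few changes make the adjustment stricter than in WT, where 35.2% were called, so the share found there was not measured. A missed threshold says little.

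The remaining tested members stayed at low level and were called in no comparison. Over the 12 libraries Pax6-201 ranged from 0.99 to 5.06 FPKM, Pax6-202 from 0.45 to 3.49, Pax6-214 from 1.79 to 8.55, Pax6-209 from 0 to 1.37, Pax6-212 from 0 to 5.87, Pax6-215 from 0 to 2.51 and Pax6-217 from 0 to 4.06 FPKM. Pax6-214, the short reading frame of the first exon start, was above 0 in every library.

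Besides Pax6-204, Pax6-210 and Pax6-211, the transcripts called lower after NMDA in WT retinas were minor ones. The group means of Pax6-206 (23.45 to 8.15 FPKM) and Pax6-213 (13.6 to 1.74 FPKM) were lower there too, without a call. Pax6-208, the coding form without the paired box, was at 1.55 and 1.21 FPKM in WT PBS and 0.02 and 0.05 FPKM in WT NMDA libraries (-3.45, SE 0.61, adjusted p = 0.0031). It was between 0.66 and 2.23 FPKM in the other 8 libraries, where PBS and NMDA overlapped within each genotype. Pax6-224, a truncated coding form with exon 5a, was at 1.64 and 1.93 FPKM in WT PBS and 0.13 and 0.17 FPKM in WT NMDA libraries (-2.91, SE 0.49, adjusted p = 0.00235). Elsewhere Pax6-224 lay between 0.83 and 2.01 FPKM. With quantile normalization neither WT call held (-1.02 and -1.12), and pseudocounts of 1 gave -1.20 and -1.27.

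Among the transcripts with a retained intron, 3 were called lower after NMDA in WT retinas. Pax6-221, which keeps 751 bases that no other *Pax6* transcript has, was at 3.25 and 3.34 FPKM in WT PBS and listed at 0 in both WT NMDA libraries (adjusted p = 5.99e-05, with no fold against 0). It was between 1.47 and 3.38 FPKM in all sh*Pax6* and JNK3 KO libraries. Pax6-218, a short fragment near the 3′ end of the gene, was at 3.66 and 6.5 FPKM in both WT PBS libraries, then at a listed 0 and 0.17 FPKM in WT NMDA libraries (-4.92, SE 0.76, adjusted p = 0.00148). Pax6-222, the retained-intron form of the intronic start, was at 5.9 and 5.29 FPKM in WT PBS and 0.67 and 0.22 FPKM in WT NMDA libraries (-3.52, SE 0.49, adjusted p = 0.000847). Each was above its WT NMDA values in every library of the other groups. Over all 9854 tested retained-intron transcripts the median difference in WT was -1.21, lower than the -0.50 of protein-coding ones. By length, the median was -0.54 under 1 kb, where Pax6-218 lies, and -0.55 for 2 to 4 kb, where Pax6-221 and Pax6-222 lie. It was -1.32 over 4 kb and 0.20 for 1 to 2 kb.

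ENSMUST00000146803 was the 1 member that rose after NMDA by the test, in WT retinas. It is a processed transcript that begins 16422 bases downstream of the first start, within the paired-box region, with 119 bases and 1 junction of its own, and is called the internal transcript here. It was at 2.21 and 2.98 FPKM in WT PBS and 10.64 and 15.94 FPKM in WT NMDA libraries (2.30, SE 0.66, adjusted p = 0.028). The sh*Pax6* retinas had 3.71 and 0.92 FPKM of it after PBS and it was listed at 0 in both NMDA libraries (adjusted p = 0.00686, with no fold against 0), and the JNK3 KO retinas had 1.81 and 2.58 FPKM after PBS and 1.21 and 2.55 FPKM after NMDA. The sh*Pax6* call was lost with a pseudocount of 1 (adjusted p = 0.0653) and with the spread of both compared groups alone (adjusted p = 0.252). The WT NMDA libraries were thus the only ones above 4 FPKM. After NMDA, JNK3 KO retinas had less of the internal transcript than WT by -2.82 (adjusted p = 0.012). The WT rise lost its call with TPM (1.75, adjusted p = 0.0793), upper-quartile scaling (1.65, adjusted p = 0.0744) and quantile normalization (2.25, adjusted p = 0.0537), and when any WT library was left out (2.01 to 2.59).

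**Figure D4:**
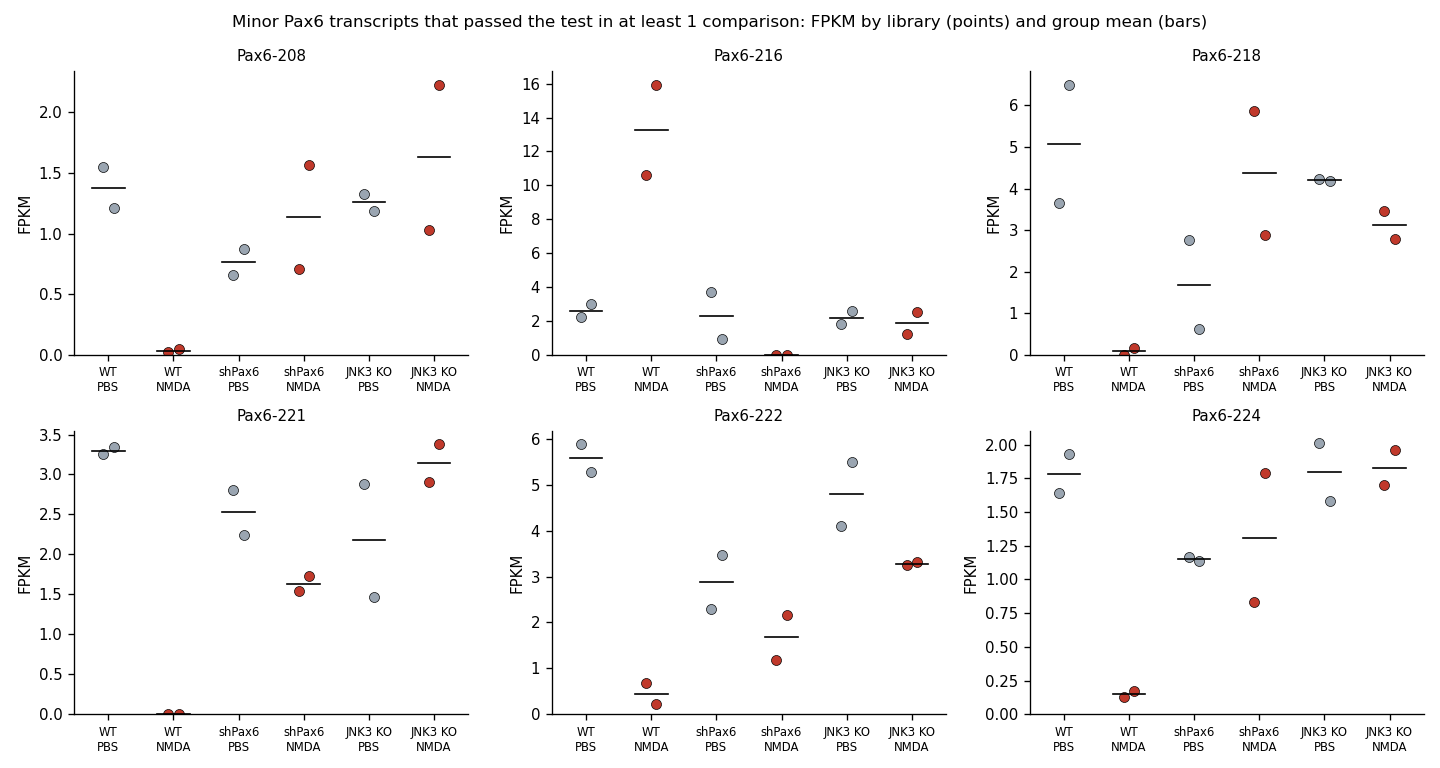
FPKM by group for 6 *Pax6* transcripts at lower level that passed the test in at least 1 comparison; points are libraries and bars group means, and each panel has its own scale from 0. Pax6-208, Pax6-218, Pax6-221, Pax6-222 and Pax6-224 were at most 0.67 FPKM in the WT NMDA libraries, and the internal transcript ENSMUST00000146803 (top middle) was high in the WT NMDA libraries, at 10.64 and 15.94 FPKM.

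The difference between responses was tested itself. The response of sh*Pax6* retinas differed from that of WT for 7 transcripts, 6 with a higher value (Pax6-204, Pax6-208, Pax6-218, Pax6-221, Pax6-222 and Pax6-224) and 1 with a lower value (the internal transcript), where 23.8% of all transcripts were called. The response of JNK3 KO retinas differed for 6, all with a higher value (Pax6-204, Pax6-208, Pax6-218, Pax6-221, Pax6-222 and Pax6-224), where 25.7% were called. The median over the 19 members was 1.69 and 1.96, against 0.66 and 0.61 over all transcripts. These comparisons share the WT libraries, and the higher ones other than Pax6-204 were at most 0.67 FPKM in the WT NMDA libraries. Of all transcripts, 16.7% and 16.6% were called higher. Without WT PBS replicate 1 or 2 the first count was 4, and the second was 3 without JNK3 KO PBS replicate 1 and 2 without JNK3 KO NMDA replicate 2.

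Directly after NMDA, 6 transcripts differed between sh*Pax6* and WT retinas, 5 higher and 1 lower (35.3% of all called), and 8 between JNK3 KO and WT, 7 higher and 1 lower (34.7% of all called). After PBS, no *Pax6* transcript differed between sh*Pax6* and WT (2.73% of all called; 4 at an unadjusted p under 0.05) or between JNK3 KO and WT (0.186% of all called; 0 at an unadjusted p under 0.05). In the first of these 17 of 19 had a negative difference with a median of -0.78. By the study's criteria 4 passed there (8.23% of all), and 1 was called without either or both WT NMDA libraries or without either sh*Pax6* NMDA library. The fall of the gene in sh*Pax6* PBS libraries, by -81.7 FPKM, was made up of Pax6-204 (-31.8), Pax6-210 (-15.8), Pax6-206 (-14.2) and Pax6-213 (-11.7 FPKM), against 11.1 FPKM more of Pax6-207.

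Usage, the level of a transcript relative to the other *Pax6* transcripts of the same library, was fitted with 0.1 FPKM added to each part, so the usage of transcripts near 0 depends on that value. After NMDA in WT retinas it changed for 3 of 19 transcripts (23.4% of 43982 transcripts called), higher for the internal transcript (4.37, SE 0.82, adjusted p = 0.00754) and lower for Pax6-218 (-3.28, adjusted p = 0.0321) and Pax6-221 (adjusted p = 0.00735, listed at 0). The calls of Pax6-218 and Pax6-221 were lost with pseudocounts of 0.5 (adjusted p = 0.0917 and 0.0685) and 1 and with diffSplice. The internal transcript took 1.27% and 1.68% of the summed *Pax6* FPKM in WT PBS and 19.2% and 29.6% in WT NMDA libraries. No usage change was called after NMDA in sh*Pax6* (1.32% of all called; 4 at an unadjusted p under 0.05) or JNK3 KO retinas (0.0136% of all called; 0 at an unadjusted p under 0.05). None was called between sh*Pax6* and WT (0.0932% called) or JNK3 KO and WT after PBS (0.00455% called), with 1 and 0 at an unadjusted p under 0.05. In simulated data with 200 of 43982 ratios changed, this test found 3.00% of changes of 4 and none of changes of 2 on the log2 scale. The adjustment was stricter there than in WT, where 23.4% were called, so these shares are not those of the WT fit. After NMDA, usage differed from WT for 5 transcripts in sh*Pax6* (25.1% of all called) and 3 in JNK3 KO retinas (23.6% of all called), the internal transcript, Pax6-218 and Pax6-221 in both. The response in usage differed from WT for the internal transcript, Pax6-218 and Pax6-221 in sh*Pax6* (10.9% of all called) and for Pax6-221 in JNK3 KO retinas (12.6% of all called), and with single libraries left out these counts were 1 to 4 and 0 to 2. The first was 1 without WT PBS replicate 1 or 2, WT NMDA replicate 1 or any JNK3 KO library, and the second was 0 without either WT PBS library, JNK3 KO PBS replicate 2 or either JNK3 KO NMDA library. The WT count was 1 without WT PBS replicate 1 and 6 without either sh*Pax6* NMDA library.

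The shares of transcript classes were compared between NMDA and PBS over the 3 genotypes with an exact two-sided permutation of treatment within genotype, which allows no p below 0.00926. The intronic start was lower after NMDA in every genotype. It made 21.2% and 21.6% of *Pax6* in WT PBS and 2.62% and 8.27% in WT NMDA libraries, 16.3% and 20.4% against 5.48% and 15.7% in sh*Pax6* retinas, and 23.8% and 25.8% against 18.2% and 19.7% in JNK3 KO retinas. No NMDA library reached a PBS library of its genotype, and the mean difference was -9.87 percentage points (exact p = 0.00926, the smallest this design allows; Benjamini-Hochberg adjusted p = 0.0741 over 8 classes, above 0.05). Without WT NMDA replicate 2 (-10.8) or sh*Pax6* NMDA replicate 1 (-8.17) the adjusted p was below 0.05.

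Protein-coding transcripts made 50.1% of *Pax6* after PBS and 61.7% after NMDA, a difference of 11.6 percentage points (exact p = 0.037, adjusted p = 0.0988), and processed transcripts 41.9% and 30.5% (-11.4, exact p = 0.037, adjusted p = 0.0988). Without WT NMDA replicate 2 the coding (13.2), processed (-13.2) and second-start (8.53) shares passed the threshold, and without sh*Pax6* NMDA replicate 1 the coding (14.2) and first-exon (-10.5) shares did. The difference of the coding share was 6.94 points in WT, 9.62 in sh*Pax6* and 18.3 in JNK3 KO retinas. The second start differed by 6.88 points (exact p = 0.0741, adjusted p = 0.148), the first exon start by -5.57 (exact p = 0.25), the third start by 0.59 (exact p = 0.426) and retained introns by -0.22 (exact p = 0.87). The retained-intron share differed by -6.65 points in WT, 4.50 in sh*Pax6* and 1.48 in JNK3 KO retinas.

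**Figure D5:**
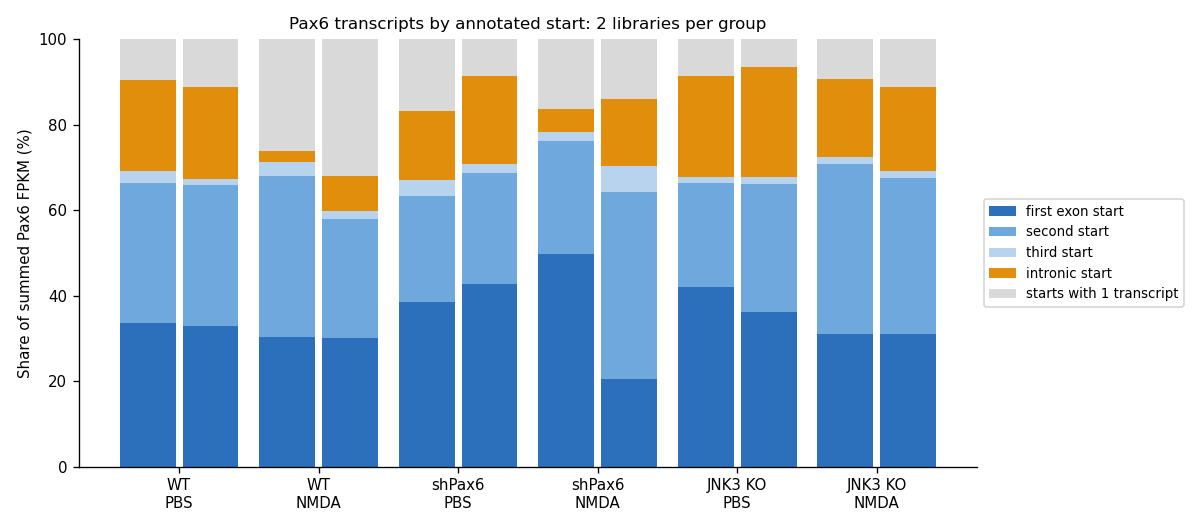
Share of the summed *Pax6* FPKM by annotated start in each library, as stacked bars of 100% with 2 libraries per group; grey holds the starts with 1 transcript each. The intronic start (orange) was at 21.2% and 21.6% in WT PBS and 2.62% and 8.27% in WT NMDA libraries, and the grey part of the WT NMDA bars holds the high share of the internal transcript.

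Exon 5a was present in 31.7% of the coding RNA that spans its site after PBS and in 35.6% after NMDA (3.91 points, exact p = 0.343, adjusted p = 0.457). By library it was 36.1% and 31.3% in WT PBS, 32.7% and 48.1% in WT NMDA, 24.5% and 29.7% for sh*Pax6* with PBS, 38.4% and 23.0% for sh*Pax6* with NMDA, 41.3% and 27.0% in JNK3 KO PBS and 36.2% and 35.1% in JNK3 KO NMDA libraries. Among these coding transcripts the form without exon 5a was thus the more abundant in all 12 libraries. The libraries of a group differed by more than the mean difference between treatments in every group but JNK3 KO NMDA. In both sh*Pax6* PBS libraries the share was below both WT PBS libraries. Over all transcripts with both neighbouring exons, noncoding ones included, the share was 53.6% in WT NMDA replicate 2 and 22.4% to 43.4% in the other libraries.

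*Pax6os1*, an antisense gene that overlaps the first *Pax6* exon, was at 4.14 and 4.19 FPKM in WT PBS and 1.43 and 2.16 FPKM in WT NMDA libraries (-1.20, SE 0.27, adjusted p = 0.00414). It did not pass in sh*Pax6* (0.04, adjusted p = 0.931) or JNK3 KO retinas (-0.64, adjusted p = 0.193). Whether the counting used strand is not stated, so reads of both genes in the overlap may be mixed. Of the 6 tested neighbours of *Pax6*, *Pax6os1* included, 2 were higher and 1 lower after NMDA in WT retinas, 2 and 1 in sh*Pax6* and 0 and 0 in JNK3 KO retinas (59.8%, 30.2% and 10.4% of all genes called), with medians of -0.15, 0.19 and 0.04 against -0.09, 0.10 and -0.01 for all genes. The 3 of 6 called in WT were below the share of all genes. *Immp1l*, a subunit of a mitochondrial peptidase complex, was among them at 0.51 in WT (adjusted p = 0.000911). The 8 other PAX genes summed to at most 2.28 FPKM in any library, and *Pax8*, the only one tested, did not pass after NMDA (1.55 in WT, adjusted p = 0.0647).

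Transcription factors that work with or downstream of *Pax6* were read as lists. Of 23 neurogenic and subtype factors 18 were tested, and after NMDA 14 were lower and 1 higher in WT (median -1.68 against -0.09 for all genes), 12 lower and 1 higher in sh*Pax6* (median -1.54 against 0.10) and 2 lower and 4 higher in JNK3 KO retinas (median -0.09 against -0.01), where 59.8%, 30.2% and 10.4% of all genes were called. *Pou4f2*, a factor of RGCs, was at 2.71 and 3.07 FPKM in WT PBS and 0.15 and 0.72 FPKM in WT NMDA libraries (-2.72, adjusted p = 0.00794), and *Neurod1*, a factor of photoreceptors and amacrine cells, changed by -0.72 in WT (adjusted p = 1.09e-05) and by 0.48 in JNK3 KO retinas (adjusted p = 0.00218). Of 13 eye field and retinal progenitor factors, 8 were lower and 1 higher in WT, 3 lower and 5 higher in sh*Pax6* and 0 lower and 4 higher in JNK3 KO retinas. Their medians were -0.47, 0.09 and 0.01 against -0.09, 0.10 and -0.01 for all genes, of which 59.8%, 30.2% and 10.4% were called. *Otx2*, which specifies photoreceptors and bipolar cells, changed by -0.63 in WT (adjusted p = 3.5e-06), and *Sox2*, a progenitor factor kept by Müller glia and some amacrine cells, by 0.90 in JNK3 KO retinas (adjusted p = 0.00152).

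Over the 12 libraries, the protein-coding genes with the pattern most like that of *Pax6* on log2(FPKM + 0.1) were *Ywhab* (r = 0.985), *Cntnap1* (0.982), *Sema6a* (0.982), *Snurf* (0.979), *mt-Cytb* (0.979), *Gria3* (0.978), *Abr* (0.977) and *Sybu* (0.977), and those most opposite were *Mfge8* (-0.974), *Zfp444* (-0.963) and *H2az1* (-0.962). *Gria3*, a subunit of the AMPA glutamate receptor, was at 10.51 and 10.08 FPKM in WT PBS, 1.87 and 2.13 FPKM in WT NMDA and 6.3 and 6.72 FPKM in JNK3 KO NMDA libraries. *Mfge8*, a secreted bridge that marks dying cells for uptake, was at 144.04 and 148.39 FPKM in WT PBS and 275.44 and 294.22 FPKM in WT NMDA libraries. These coefficients are descriptions over 12 points that share group structure, 302 of 13889 genes were above 0.9 and 48 below -0.9, and without the WT NMDA libraries the 8 lay between 0.967 and 0.978. *Snurf* shares a transcript with a neighbouring gene, so its reads may be split.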

How the data were processed

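RNA-seq of mouse retina was analysed from 2 tables, of genes and of transcripts. Per the labels and the study's methods, the authors aligned reads with STAR 2.7.1a to GRCm38.p6, estimated abundance with RSEM 1.3.3 and deposited FPKM per gene and transcript, and used edgeR 3.36.0 in R 4.1.0. Reverse transcription from oligo-dT may favour 3′ ends. Transcripts were matched by Ensembl ID to GENCODE M21, which found 26 of 26 *Pax6* transcripts and 141469 of 142699 in all.

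FPKM above a mean of 1 in at least 1 group were fitted on log2(FPKM + 0.1) with limma 3.58.1 in R 4.3.3 (lmFit, then eBayes allowing for a trend of the spread with level), in 1 model of 6 groups with 6 residual degrees of freedom, for 16471 genes and 49940 transcripts and 9 comparisons. A fold change on this scale understates the change of low values. A call is a Benjamini-Hochberg adjusted p under 0.05 over all features. Usage was fitted alike as log2 of a transcript over the sum of the other transcripts of its gene, each plus 0.1, for 43982 transcripts of 10340 genes. Shares used exact permutation. Named are every *Pax6* transcript, the 8 most and 3 least correlated genes, and of each list the members with the largest change or highest level. *Rbpms*, *Gad1*, *Stmn2* and *Mapk10* were added after their values were seen, as were the coding and noncoding sums. *Pou4f1*, *Sncg* and *Gap43* were also named outside this rule, with their values known. *Pax6* as the gene to describe and the gene lists were chosen with earlier results of these data known; its transcripts then followed from their names.

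Fits were tested on simulated data with 200 changed features on the WT comparison. Far more were called in the WT data (59.8% of genes, 35.2% of transcripts and 23.4% of usage ratios). The adjustment was therefore stricter in the simulation, and the shares found are not those of the WT fits. Of 16471 genes, 58.0%, 66.0% and 86.0% of changes of 1, 2 and 4 (log2) were found; of 49940 transcripts, 4.00%, 20.0% and 46.0%; and of 43982 usage ratios, 0.00%, 0.00% and 3.00%. Alternatives were pseudocounts of 0.5 and 1, other filters, no trend, TPM, upper-quartile and quantile scaling, a length correction (lowess span 0.3), the study's criteria (unadjusted p under 0.05, absolute log2 difference above 1), the spread of the compared groups alone, a replicate block, and each library left out. The study's criteria were applied to the limma fit, without its edgeR test and its limit on the variance-mean ratio. For usage, diffSplice and the arcsine of the share were added, and for class shares the logit, shares of fragments and transcripts past the filter only. Fits without both WT NMDA libraries, shares without WT libraries and exon 5a over all transcripts with its neighbouring exons were added after seeing the data. Python 3.11.15 with pandas 2.3.3, numpy 2.4.6 and matplotlib 3.10.9 was used for shares and figures. Protein sequences were not used here.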

Additional observations from a re-analysis of the deposited data

Results flagged for a closer look

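The NMDA response of *Pax6* differed between genotypes in the tests of the difference itself, given here as the response of sh*Pax6* or JNK3 KO retinas minus that of WT on the log2 scale by limma, with no cause weighed. For the gene the differences were 1.11 and 1.18. For sh*Pax6* the transcripts were Pax6-204 (1.74), Pax6-208 (3.89), Pax6-218 (6.49), Pax6-221 (4.49), Pax6-222 (2.74), Pax6-224 (2.99) and the internal transcript (-6.60). For JNK3 KO they were Pax6-204 (1.99), Pax6-208 (3.71), Pax6-218 (4.49), Pax6-221 (5.66), Pax6-222 (3.00) and Pax6-224 (2.95). In usage they were the internal transcript (-8.13), Pax6-218 (5.49) and Pax6-221 (3.41) for sh*Pax6* and Pax6-221 (4.53) for JNK3 KO. The values of the internal transcript, Pax6-218 and Pax6-221 rest on libraries listed at 0, depend on the pseudocount and are no bounds. The JNK3 KO comparison for the internal transcript (-2.58, adjusted p = 0.0808) was not called. All of these share the 4 WT libraries, and the summed FPKM of 805627 and 820180 set the WT NMDA libraries apart from the other 10, whose part in these values was not tested. No group has enough libraries for a test of a single outlying library.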

How the results depend on the processing

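The FPKM give no read depth, so counting error and detection limits are unknown, and the division of shared reads among transcripts has no stated error. Gene-level *Pax6* differences kept their direction and call under all scalings, pseudocounts and filters, with the exceptions given here; the cause was not tested. With the spread of the compared groups alone and by the study's criteria (absolute log2 above 1) the NMDA difference of -0.57 in sh*Pax6* was not called, nor by those criteria were -0.51 in JNK3 KO and -0.90 between sh*Pax6* and WT after PBS. The excess of sh*Pax6* over WT after NMDA lost its call without the intensity trend, with the compared groups alone and by the study's criteria (0.21 in each) and with 75th percentile scaling (0.035). Quantile normalization turned the uncalled JNK3 KO difference from WT after PBS to -0.042.

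For counts of called transcripts, NMDA in sh*Pax6* gave 1, against 2 with a pseudocount of 0.5 or quantile normalization, 0 with the compared groups alone and 3 by the study's criteria. Between sh*Pax6* and WT after PBS it was 0, against 1 with 75th percentile scaling, quantile normalization or without both WT NMDA libraries, and 4 by the study's criteria. The response difference of sh*Pax6* gave 7, against 4 with quantile normalization, length correction or the compared groups alone, and that of JNK3 KO gave 6, against 2, 3 and 10. For usage, diffSplice gave 1 rather than 3 in WT, 1 rather than 0 between sh*Pax6* and WT after PBS, and 0 rather than 1 for the JNK3 KO response, which was 2 with a pseudocount of 0.5, a filter on all 12 libraries, no trend, the compared groups alone or the arcsine. Without the trend NMDA in sh*Pax6* gave 1 rather than 0. The compared groups alone gave 1 rather than 3 for the sh*Pax6* response.

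With 1 library left out, the gene differences ranged from -1.70 to -1.66 (NMDA in WT), -0.67 to -0.47 (sh*Pax6*), -0.55 to -0.46 (JNK3 KO), -0.92 to -0.89 and 0.09 to 0.13 (sh*Pax6* and JNK3 KO against WT after PBS), 0.10 to 0.31 and 1.24 to 1.33 (after NMDA), and 1.01 to 1.21 and 1.13 to 1.22 (responses). A group left with 1 library was assumed to vary like the others. Transcript counts ranged from 6 to 10, 1 to 5 and 0 to 1 after NMDA, 0 to 1 and 0 to 0 after PBS, and 4 to 8 and 2 to 9 for responses, and usage counts from 1 to 6, 0 to 1, 0 to 0, 0 to 0, 0 to 0, 1 to 4 and 0 to 2. Shares ranged from 9.04 to 14.2 (coding), -13.7 to -9.13 (processed), -0.54 to 0.10 (retained intron), 1.34 to 6.48 (exon 5a), -10.5 to -0.69, 3.99 to 9.76, -0.10 to 1.28 and -11.6 to -8.17 points (the first exon, the second, the third and the intronic start). Retained introns turned to 0.097 without WT PBS replicate 2, 0.0903 without sh*Pax6* NMDA replicate 2 and 2.99 without the 4 WT libraries, and the third start to -0.10 without sh*Pax6* NMDA replicate 2.

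No effect shared by replicate number was visible: over 15 pairs of groups, same-numbered deviations correlated between -0.097 and 0.086 over genes. With 2 libraries per group this cannot show that the libraries were unpaired. With a replicate block, the count of changed usage for the sh*Pax6* response was 1 rather than 3, and no other count moved by over 1.5 times.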
